A study of Homo sapiens with 24 samples.

Results

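The NODAL, TGF-beta and BMP signalling pathways were followed here through 45 named genes: 12 ligands, 2 latent TGF-beta binding proteins, 2 co-receptors, 8 antagonists, 9 receptors, 8 SMAD genes and 4 ID genes. The genes were chosen by name, with earlier results of these data known, and kept where a deposited count table lists them. All 45 are among the 61544 identifiers of the organoid table, and 33 are among the 10221 identifiers of the neural progenitor cell (NPC) table. NODAL, BMP4, CER1, ACVR1, ACVR1B, BMPR2, SMAD5, SMAD6, SMAD7, ID1, ID2 and ID4 were therefore not analysed here in the NPCs.

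All libraries were RNA-seq libraries of poly(A) RNA from derivatives of H9, a human embryonic stem cell line in long use. Stem cells had been infected with a lentivirus carrying the hairpin sh1 or sh4, both against KDM2A, or a scrambled hairpin, labelled NC with genotype WT. The infected cells of all groups, NC included, were selected in puromycin before they were made into NPCs or into cerebral organoids, neural aggregates taken at day 30. There were 5 NPC libraries and 3 organoid libraries each for sh1, sh4 and NC. KDM2A is a demethylase of lysine 36 of histone H3, and the study asked how it acts in neural development.

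NODAL, activins and TGF-beta ligands bind serine/threonine kinase receptors that phosphorylate SMAD2 and SMAD3, whereas most BMPs act through receptors that phosphorylate SMAD1, SMAD5 and SMAD9. Both branches share SMAD4 and are dampened by secreted antagonists and by the inhibitory SMAD6 and SMAD7, and the ID genes are classic BMP targets. In the early embryo NODAL and activin signals maintain pluripotent cells and induce mesendoderm, BMP signals later pattern the dorsal neural tube, and TGF-beta signals act on mesenchyme and its matrix.

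Some facts of the libraries bear on all values. The organoid libraries held 15.9 to 18.85 M counts, and the NPC libraries held 12.73 to 20.19 M counts over the listed genes. The NPC table lists far fewer genes than the organoid table, and 99.3% of the 9860 tested there had an adjusted p under 0.05 in edgeR for sh1 against NC, and the highest unadjusted p was 0.148. NPC levels, given as CPM (counts after division by the scaled library total), are therefore relative to the listed genes, and NPC counts of calls depend on how those genes were picked. KDM2A was at 98.1, 89.2, 94.7, 89.1 and 89.1 CPM with sh1 and 92.6, 95.7, 102, 93.8 and 91.3 CPM with sh4 in the NPCs, against 198, 183, 202, 185 and 163 CPM with NC. In the organoids it was at 111, 117 and 103 CPM in libraries labelled sh1 and 105, 95.5 and 103 CPM in those labelled sh4, against 99.9, 105 and 96.8 CPM in those labelled NC, so the targeted gene was lower in the NPCs and not in the organoids. Organoid directions are for that reason given for the libraries labelled sh1 and sh4. The sh1 and sh4 comparisons of each system share the NC libraries and are not independent of each other.

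The defining markers of the labelled cells were partly present. In the NPCs NES, an intermediate filament of progenitors, averaged 1770 CPM with sh1 and 2700 CPM with sh4, against 2150 CPM with NC. HES5, a Notch target of progenitors, was near 0 in the NPCs, at 0.105 CPM with sh1 and 0.131 CPM with sh4, against 0.636 CPM with NC. Progenitor markers that rose with both hairpins were SOX1, FABP7, PROM1 and SLC1A3. SOX1 averaged 33.4 CPM with sh1 and 50.2 CPM with sh4, against 13 CPM with NC, FABP7 29 CPM with sh1 and 28.4 CPM with sh4, against 5.89 CPM with NC, PROM1 76.8 CPM with sh1 and 118 CPM with sh4, against 32.3 CPM with NC, and SLC1A3 69.8 CPM with sh1 and 72.9 CPM with sh4, against 25.7 CPM with NC. PAX6, a factor of neural progenitors, averaged 28.5 CPM with sh1 and 3.17 CPM with sh4, against 17 CPM with NC. NOTCH1, also on the progenitor list, averaged 53.7 CPM with sh1 and 78.1 CPM with sh4, against 120 CPM with NC. POU5F1, the pluripotency factor OCT4, averaged 100 CPM with sh1 and 136 CPM with sh4, against 355 CPM with NC. In the organoids PAX6 averaged 14.6 CPM in libraries labelled sh1 and 8.02 CPM in those labelled sh4, against 171 CPM in those labelled NC.

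A member was called when edgeR's quasi-likelihood test gave a Benjamini-Hochberg adjusted p below 0.05 over all genes tested and a log2 fold change of at least 1 in size. In the organoids 44 members were tested. In the libraries labelled sh1, 6 rose and 6 fell against NC, beside 12.1% and 7.92% of all tested genes called higher and lower. In those labelled sh4, 9 rose and 9 fell, beside 20% and 15.5% of all genes. Called with both hairpins were 5 higher members and 6 lower, 11.4% and 13.6% of the 44, beside 10.2% and 6.18% of all genes. The shares of members that rose were thus close to the background, and the members' median log2 fold change with sh1 was 0.02, as over all genes. In the NPCs 31 members were tested. With sh1, 7 rose and 2 fell, beside 6.31% and 12.1% of all genes, and with sh4, 8 rose and 4 fell, beside 6.55% and 11.6%. Called with both hairpins were 7 higher and 1 lower, 22.6% and 3.23% of the 31, beside 4.62% and 8.48% of all genes, and the members' median was 0.13 with either hairpin, beside all-gene medians of 0.11 with sh1 and 0.03 with sh4. Because the members were chosen with earlier results of these data known, these shares are no test of an excess over all genes. In the NPCs all genes means the tested genes of those listed, so the NPC shares also depend on how the listed genes were picked. By adjusted p alone, with no fold minimum, 28 members were called in the organoids for sh1 against NC (46.7% of all genes), 36 for sh4 against NC (67.9%) and 23 for sh1 against sh4 (49.9%). In the NPCs they were 30 (99.3% of all genes), 25 (88%) and 17 (27.6%), and for the difference between the systems 28 (78.6%).

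**Figure D1:**
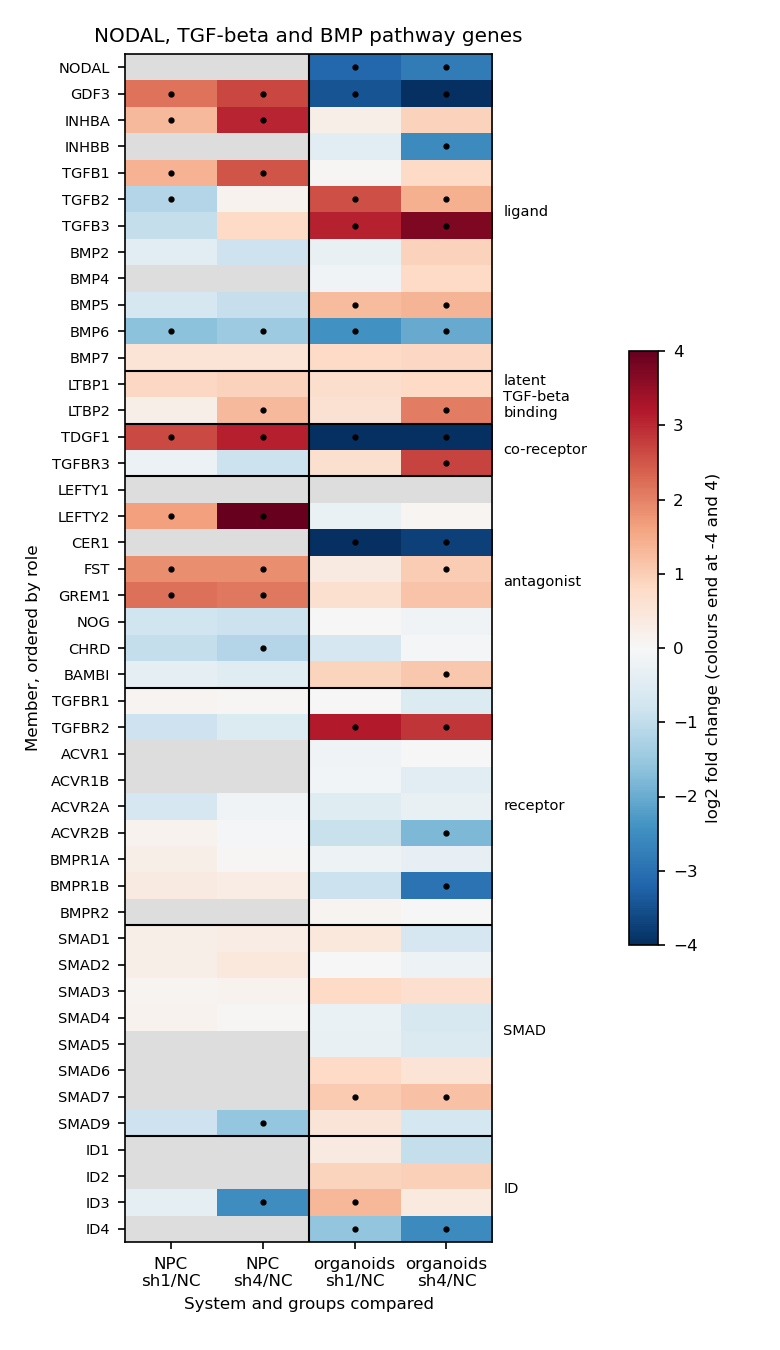
Log2 fold change over NC of each member (rows, grouped by role) in the NPCs and organoids, for sh1 and sh4 (columns), with a dot where the member was called. Grey marks members not listed or not tested, and colours end at -4 and 4; TDGF1 and GDF3 are above NC in the NPCs and far under it in the organoids.

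NODAL, GDF3, TDGF1 and CER1 were low in the organoids labelled sh1 and sh4. The ligand NODAL had 6, 4 and 3 counts in libraries labelled sh1 and 4, 9 and 2 in those labelled sh4, against 48, 37 and 32 in those labelled NC. The groups did not overlap, and NODAL fell, with log2 fold changes of -3.15 ± 0.47 for sh1 and -2.80 ± 0.46 for sh4 (± SE; adjusted p = 0.000539 and 0.000419, edgeR). GDF3, a related ligand of pluripotent cells, had 4, 10 and 16 counts with sh1 and 0 in each of the 3 libraries with sh4, against 151, 67 and 109 with NC. GDF3 fell with sh1, at -3.46 ± 0.51 (adjusted p = 0.00114, edgeR), and with sh4 it was at least 33.2-fold lower, with 3 counts per library as the floor. In bulk libraries such as these, fewer cells of a type and less RNA per cell cannot be told apart.

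TDGF1, or CRIPTO, is the co-receptor through which NODAL and GDF3 signal. It was at 0.877, 0.494 and 1.92 CPM with sh1 and 2.79, 2.24 and 1.38 CPM with sh4, against 85.8, 54.8 and 61.2 CPM with NC. Every library labelled sh1 or sh4 lay far under every NC library, and TDGF1 fell, at -5.93 ± 0.38 and -4.98 ± 0.35 (adjusted p = 4.52e-06 and 2.14e-06, edgeR). CER1, a secreted antagonist of NODAL and BMPs, had 0, 2 and 4 counts with sh1 and 3, 2 and 2 with sh4, against 57, 35 and 16 with NC. It fell, at -4.09 ± 0.71 and -3.73 ± 0.70 (adjusted p = 0.00126 and 0.000932, edgeR), with a wide spread among the NC libraries. Without sh1 replicate 3 the sh1 values of TDGF1 and CER1 were -6.61 and -5.02, and without sh4 replicate 2 the sh4 value of NODAL was -3.48. LEFTY2, a NODAL antagonist, had 14, 1 and 11 counts with sh1 and 5, 14 and 11 with sh4, against 17, 10 and 4 with NC, and a difference was not detectable at this depth (95% intervals -1.91 to 1.39 and -1.54 to 1.71). Its neighbour LEFTY1 had too few counts to be tested. LEFTY1 and LEFTY2 are near-identical and TDGF1 has processed copies, so their counts are uncertain where reads could be split.

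Pluripotency markers moved with these genes. Of the 9 markers tested in the organoids, all 9 fell with both hairpins. The summed level of the 10 on the list was 117 to 141 CPM in libraries labelled sh1 and 125 to 159 CPM in those labelled sh4, against 670 to 994 CPM in those labelled NC. POU5F1 averaged 0.475 CPM with sh1 and 0.68 CPM with sh4, against 231 CPM with NC, UTF1 was at 0 with both hairpins and PRDM14 was at 0 with sh4. The part of these markers in the NODAL, GDF3, TDGF1 and CER1 values was not tested. FOXH1, the forkhead factor that brings SMAD2 to NODAL targets, fell as well, to 0.366 ± 0.114 CPM with sh1 and 0.667 ± 0.344 CPM with sh4, against 29.4 ± 4.07 CPM with NC (SD, n = 3 each; adjusted p at most 1.64e-06, edgeR).

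Promoter sequences are shown for 3 genes that fell in the organoids, NODAL, GDF3 and CER1, for 2 that rose, TGFB3 and TGFBR2, and for SMAD6, the member with the rarest motif. They come from RefSeq (GRCh38.p14), which had windows for 39 of the 45 members. The motifs searched on both strands were AATNCACA (FOXH1-like), CAGAC (the short SMAD motif), GTCTAGAC (the palindromic SMAD motif) and GGCGCC (the BMP-responsive SMAD motif). Capitals mark matches, none of which overlap in these windows. TGFB3 and TGFBR2 have 2 windows each, of which the first is shown. For NODAL, CER1, TGFB3 and TGFBR2 the bases just after the start were not found in a GENCODE transcript of the gene. Positions from those starts are therefore less certain. Each line gives the 250 bases before the first listed start, 5′ to 3′ on the gene's strand: NODAL at chr10:70441682-70441931 (minus), GDF3 at chr12:7695776-7696025 (minus), CER1 at chr9:14722734-14722983 (minus), TGFB3 at chr14:75983012-75983261 (minus), TGFBR2 at chr3:30606106-30606355 (plus) and SMAD6 at chr15:66701986-66702235 (plus).
NODAL: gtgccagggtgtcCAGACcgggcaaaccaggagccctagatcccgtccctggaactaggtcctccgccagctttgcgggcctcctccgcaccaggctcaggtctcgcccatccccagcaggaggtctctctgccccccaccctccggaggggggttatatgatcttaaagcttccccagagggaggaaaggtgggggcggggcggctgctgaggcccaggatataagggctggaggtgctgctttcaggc
GDF3: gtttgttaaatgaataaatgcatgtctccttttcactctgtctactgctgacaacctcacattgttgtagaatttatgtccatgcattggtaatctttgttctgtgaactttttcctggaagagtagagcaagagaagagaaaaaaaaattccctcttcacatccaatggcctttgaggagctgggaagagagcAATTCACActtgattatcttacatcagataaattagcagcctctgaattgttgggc
CER1: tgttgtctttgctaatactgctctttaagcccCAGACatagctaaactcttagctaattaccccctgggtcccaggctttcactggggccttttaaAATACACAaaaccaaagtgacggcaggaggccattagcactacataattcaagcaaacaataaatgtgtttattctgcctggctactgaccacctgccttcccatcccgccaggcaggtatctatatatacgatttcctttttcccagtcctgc
TGFB3: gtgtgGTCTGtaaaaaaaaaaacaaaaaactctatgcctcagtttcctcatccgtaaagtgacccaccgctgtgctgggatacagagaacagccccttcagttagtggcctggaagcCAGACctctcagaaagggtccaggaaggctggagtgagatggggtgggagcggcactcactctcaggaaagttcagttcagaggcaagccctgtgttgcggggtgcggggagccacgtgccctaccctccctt
TGFBR2: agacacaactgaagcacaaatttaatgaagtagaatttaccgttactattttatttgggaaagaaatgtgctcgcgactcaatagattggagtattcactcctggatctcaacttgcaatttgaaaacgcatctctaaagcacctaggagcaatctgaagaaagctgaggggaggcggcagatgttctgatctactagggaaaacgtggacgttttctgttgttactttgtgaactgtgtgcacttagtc
SMAD6: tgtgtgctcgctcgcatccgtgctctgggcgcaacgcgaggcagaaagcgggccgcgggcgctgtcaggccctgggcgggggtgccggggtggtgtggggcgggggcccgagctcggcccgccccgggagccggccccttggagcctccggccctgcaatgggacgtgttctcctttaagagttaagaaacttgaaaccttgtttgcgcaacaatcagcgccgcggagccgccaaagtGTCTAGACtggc

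GDF3 and CER1 each held 1 FOXH1-like match, at bases -56 to -49 and -154 to -147 from the start. Of all 35116 windows, 2.89% held this motif, as did 3 of the 69 windows of the 39 members. Of these members only BMPR1B held it besides GDF3 and CER1. The short SMAD motif stood once in the NODAL and CER1 windows and 2 times in that of TGFB3. It was in 38.0% of all windows and in 27 of the 69 member windows, which belonged to 18 members. The printed TGFBR2 window held none of the 4 motifs. The palindromic motif was found in 0.182% of all windows and in 1 member window, that of SMAD6, at bases -12 to -5. The BMP-responsive motif was in 16.4% of all windows and in 16 of the 69 member windows, which belonged to 14 members. These are matches of letters, and binding was not measured.

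**Figure D2:**
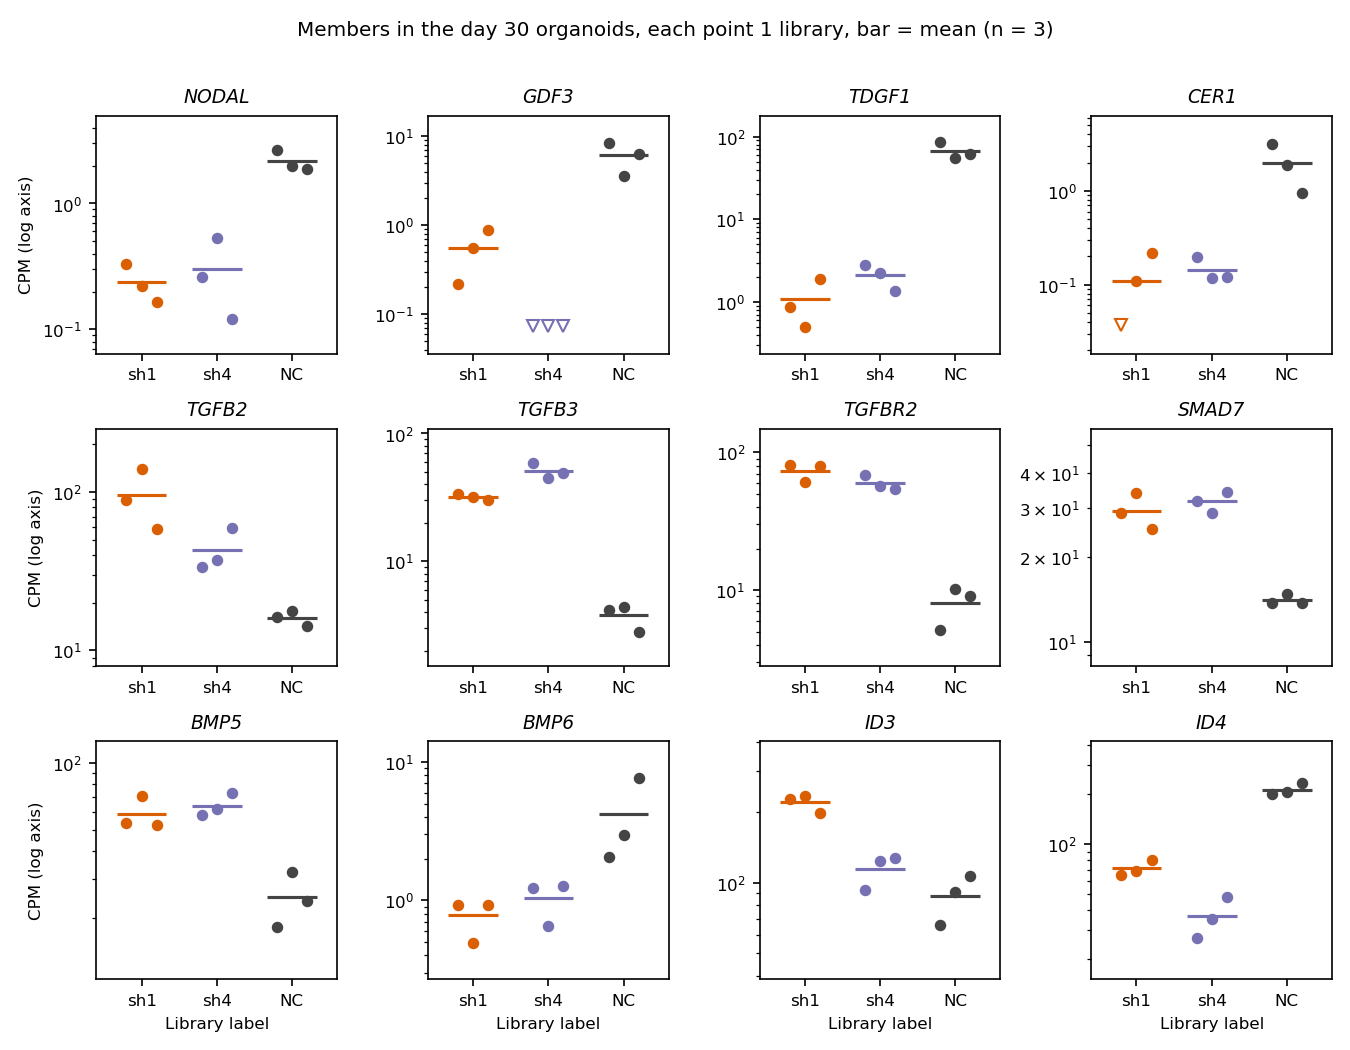
Level in CPM (vertical, log axis) of members in each organoid library, by label (sh1, sh4, NC); bars are means of 3 libraries, and open triangles, drawn under the lowest value, are libraries at 0. NODAL, GDF3, TDGF1 and CER1 are low and TGFB3 and TGFBR2 are high in every library labelled sh1 or sh4.

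The TGF-beta ligands TGFB2 and TGFB3 and their receptor were high in the same organoids. TGFB3 was at 33.8, 31.8 and 30.3 CPM with sh1 and 58.5, 45.1 and 48.9 CPM with sh4, against 4.2, 4.37 and 2.81 CPM with NC. TGFB2 was at 88.7, 140 and 58.2 CPM with sh1 and 33.7, 37.2 and 59 CPM with sh4, against 16.2, 17.7 and 14.2 CPM with NC. Neither overlapped NC, and sh1 and sh4 overlapped each other for TGFB2. TGFB3 rose by 3.07 ± 0.16 and 3.74 ± 0.17 and TGFB2 by 2.58 ± 0.32 and 1.44 ± 0.32 in log2 units (adjusted p at most 0.00252, edgeR). TGFB1 was not called, at 0.04 ± 0.12 with sh1 and 0.79 ± 0.12 with sh4.

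TGFBR2, the type II receptor of the TGF-beta ligands, was at 80.6, 60.4 and 78.9 CPM with sh1 and 68.1, 56.6 and 53.9 CPM with sh4, against 5.14, 10.2 and 9.03 CPM with NC. All 6 libraries stood far above NC, and it rose by 3.17 ± 0.23 and 2.87 ± 0.23 (adjusted p = 7.86e-06 and 3.99e-06, edgeR). TGFBR3, betaglycan, a co-receptor that presents TGF-beta ligands, was at 63.2, 42.6 and 71.8 CPM with sh1 and 297, 208 and 246 CPM with sh4, against 40.3, 43.7 and 30.5 CPM with NC. It rose with sh4 (2.71 ± 0.22), while sh1 overlapped NC (0.63 ± 0.21). LTBP2, a matrix protein related to the latent TGF-beta carriers, was at 7.13, 5.99 and 6.25 CPM with sh1 and 18.6, 18.4 and 14.7 CPM with sh4, against 3.42, 4.91 and 4.28 CPM with NC. It rose with sh4 (2.03 ± 0.17) and was not called with sh1 (0.62 ± 0.17), and LTBP1, a latent TGF-beta carrier, was at 0.69 ± 0.18 and 0.80 ± 0.18.

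Of the activin subunits, INHBA was not called in the organoids (0.25 ± 0.41 and 0.92 ± 0.40). INHBB had 44, 23 and 129 counts with sh1 and 10, 11 and 20 with sh4, against 90, 83 and 89 with NC. It fell with sh4 (-2.54 ± 0.59, adjusted p = 0.00338, edgeR), and its sh1 libraries lay on both sides of NC.

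Markers of other cell types moved with these calls. Of 10 mesenchyme markers 9 rose with both hairpins in the organoids, and their sum was 22100 to 25100 CPM with sh1 and 41700 to 51200 CPM with sh4, against 3170 to 4650 CPM with NC. Of 10 choroid plexus markers 8 rose, with sums of 971 to 2100 CPM with sh1 and 4290 to 9100 CPM with sh4, against 137 to 274 CPM with NC. The mesoderm and endoderm list had 3 higher and 4 lower of 10, with sums of 2510 to 7550 CPM with sh1 and 15000 to 54400 CPM with sh4, against 90.4 to 387 CPM with NC, and TBXT was at 0 with both hairpins. With sh1 or sh4, MIXL1, EOMES, MESP1, FOXA2, SOX17 and GATA4 each averaged at most 8 CPM, so they made up little of these sums. The rest of the sums came from the other genes on the list, GATA6, AFP and APOA1. These were the 3 called higher with both hairpins, whereas MIXL1 and EOMES were called lower with both. Neural progenitor markers fell for 5 of 10, with sums of 2800 to 2920 CPM with sh1 and 1430 to 1850 CPM with sh4, against 3300 to 3770 CPM with NC, and neuron markers for 3 of 10, with sums of 1140 to 1580 CPM with sh1 and 212 to 864 CPM with sh4, against 3000 to 3250 CPM with NC. VIM averaged 2160 CPM with sh1 and 1250 CPM with sh4, against 2110 CPM with NC, and made up most of the progenitor sums. Roof plate and cortical hem markers rose for 5 of 10, with sums of 386 to 561 CPM with sh1 and 243 to 355 CPM with sh4, against 211 to 302 CPM with NC. Of 8 neural crest markers 1 rose with both hairpins, while 3 rose and 0 fell with sh1 and 1 rose and 2 fell with sh4. Their sums were 498 to 564 CPM with sh1 and 218 to 338 CPM with sh4, against 171 to 235 CPM with NC. Of 10 epithelium markers 0 were called with both hairpins, but 7 rose and 0 fell with sh4 and 0 rose and 2 fell with sh1, with sums of 554 to 757 CPM with sh1 and 2150 to 2880 CPM with sh4, against 900 to 1020 CPM with NC. With sh4 alone considered, neuron markers fell for 9 of 10. The part of these markers in the values of the members was not tested.

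**Figure D3:**
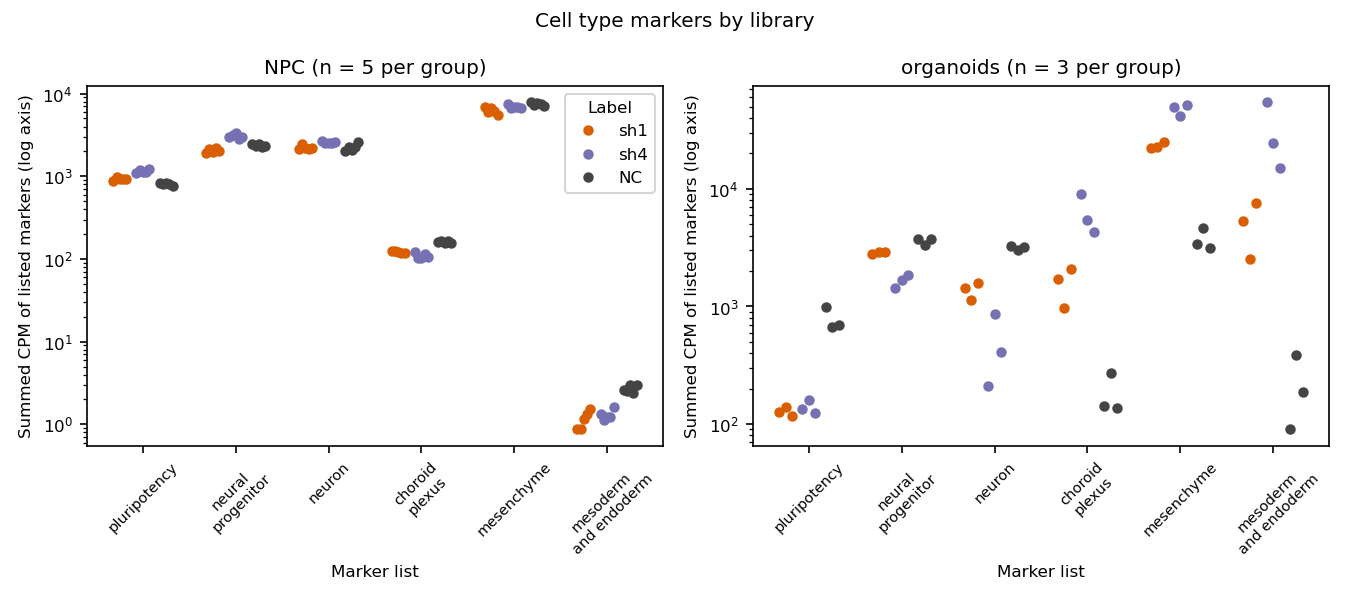
Summed CPM of marker lists (vertical, log axis) in each library of the NPCs and organoids, by label. In the organoids the pluripotency sum is 117 to 159 CPM with sh1 and sh4 against at least 670 CPM with NC, and the mesenchyme sum at least 22100 CPM against at most 4650 CPM.

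The BMP ligands had no common direction in the organoids. BMP5 was at 53.4, 71.1 and 52.4 CPM with sh1 and 58.1, 61.8 and 72.8 CPM with sh4, against 18.2, 32.3 and 23.8 CPM with NC. BMP6 was at 0.932, 0.494 and 0.932 CPM with sh1 and 1.23, 0.647 and 1.26 CPM with sh4, against 2.04, 2.99 and 7.68 CPM with NC. Neither overlapped NC, and the third NC library was well above the other NC libraries for BMP6. BMP5 rose by 1.25 ± 0.20 and 1.37 ± 0.20, and BMP6 fell, at -2.42 ± 0.53 and -2.01 ± 0.52 (adjusted p at most 0.00651, edgeR). Without NC replicate 3 the BMP6 values were -1.67 with sh1 and -1.27 with sh4, both still called. BMP2, BMP4 and BMP7 were not called, at -0.29 ± 0.32, -0.14 ± 0.10 and 0.80 ± 0.13 with sh1 and 0.92 ± 0.31, 0.80 ± 0.10 and 0.84 ± 0.13 with sh4.

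Antagonists other than CER1 were called with sh4 at most. FST, follistatin, which sequesters activins, was at 14.8, 16.8 and 25.2 CPM with sh1 and 28.1, 28.4 and 32.9 CPM with sh4, against 14.3, 13.5 and 16.5 CPM with NC. BAMBI, a receptor-like protein with no kinase that blocks signalling, was at 87.9, 88.9 and 85.5 CPM with sh1 and 110, 93.2 and 97.2 CPM with sh4, against 43.9, 48.5 and 49.1 CPM with NC. With sh4 FST rose by 1.01 ± 0.19 and BAMBI by 1.09 ± 0.08, both close to the fold minimum and both lost when libraries were scaled by total count alone (0.74 and 0.81). With sh1 they stood at 0.36 ± 0.19 and 0.89 ± 0.08. The FST call was also lost without sh4 replicate 3, NC replicate 1 or NC replicate 2. GREM1, gremlin, a BMP antagonist, had 128, 137 and 69 counts with sh1 and 125, 132 and 168 with sh4, against 1, 87 and 119 with NC, and was not called (0.65 ± 0.78 and 1.16 ± 0.77). The BMP antagonists NOG (-0.02 ± 0.20 and -0.13 ± 0.20) and CHRD (-0.67 ± 0.22 and -0.06 ± 0.22) were not called either.

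Among the receptors besides TGFBR2, ACVR2B and BMPR1B fell with sh4. ACVR2B, a type II receptor of activins and NODAL, was at 125, 139 and 131 CPM with sh1 and 63, 76.4 and 72.7 CPM with sh4, against 248, 247 and 236 CPM with NC. BMPR1B, a type I BMP receptor, was at 6.47, 8.52 and 4.88 CPM with sh1 and 0.974, 2.12 and 1.44 CPM with sh4, against 10.7, 9.81 and 15.2 CPM with NC. The 3 groups were separate for both genes, with sh1 between sh4 and NC. The log2 fold changes were -0.89 ± 0.08 and -1.79 ± 0.08 for ACVR2B and -0.85 ± 0.28 and -2.96 ± 0.32 for BMPR1B (adjusted p with sh4 = 3.53e-07 and 2.82e-05, edgeR). TGFBR1, ACVR1, ACVR1B, ACVR2A, BMPR1A and BMPR2 were not called and ranged from -0.55 (TGFBR1 with sh4) to 0.12 (BMPR2 with sh1).

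SMAD7 was the only SMAD gene called over NC in the organoids. This inhibitory SMAD, itself induced by TGF-beta, was at 28.8, 33.8 and 25.2 CPM with sh1 and 31.7, 28.8 and 34.2 CPM with sh4, against 13.7, 14.8 and 13.7 CPM with NC. The groups did not overlap, and it rose by 1.06 ± 0.12 and 1.17 ± 0.12 (adjusted p = 0.000112 and 2.06e-05, edgeR). The sh1 call was lost without sh1 replicate 2 (0.94), and the sh4 call with scaling by total count alone (0.89). SMAD6, the inhibitory SMAD of the BMP branch, was at 0.78 ± 0.10 and 0.56 ± 0.10, SMAD3 at 0.79 ± 0.10 and 0.66 ± 0.10, SMAD2 at 0.01 ± 0.06 and -0.20 ± 0.06, SMAD4 at -0.26 ± 0.06 and -0.63 ± 0.06, and SMAD5 at -0.30 ± 0.08 and -0.59 ± 0.08.

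The ID genes, which encode inhibitors of helix-loop-helix factors, moved in different directions. ID4 was at 65.2, 68.3 and 80.5 CPM with sh1 and 27.1, 35.3 and 47.5 CPM with sh4, against 201, 206 and 235 CPM with NC. ID3 was at 229, 236 and 198 CPM with sh1 and 93.4, 124 and 127 CPM with sh4, against 66, 91.2 and 107 CPM with NC. ID4 was low in all 6 libraries, whereas ID3 was high with sh1 and overlapped NC with sh4. ID4 fell, at -1.58 ± 0.17 and -2.54 ± 0.18 (adjusted p = 8.85e-05 and 2.28e-06, edgeR). ID3 rose with sh1 (1.33 ± 0.17, adjusted p = 0.000257, edgeR) and stood at 0.39 ± 0.17 with sh4. ID2 was not called, at 0.90 ± 0.13 and 0.94 ± 0.13.

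Between the libraries labelled sh1 and sh4, 10 organoid members were called, 7 higher and 3 lower with sh1 (15.9% and 6.82% of 44, beside 7.83% and 11.2% of all genes). ID1 was at 156, 179 and 146 CPM with sh1 against 62.5, 60.2 and 70.4 CPM with sh4, with NC between them at 118, 122 and 132 CPM. SMAD1 was at 49.7, 46.1 and 46.5 CPM with sh1 against 19.7, 27.2 and 19.7 CPM with sh4, with NC at 34, 37.2 and 35.6 CPM. SMAD9 was at 31.5, 38.6 and 31.5 CPM with sh1 against 9.03, 14.8 and 20.3 CPM with sh4, with NC at 22.5, 23.3 and 25.9 CPM. For these 3 genes of the BMP branch every sh1 library was above and every sh4 library under every NC library, although none was called against NC. The log2 fold changes of sh1 over sh4 were 1.32 ± 0.09, 1.10 ± 0.12 and 1.20 ± 0.23 (adjusted p = 4.51e-05, 0.000178 and 0.00241, edgeR), and SMAD9 lost its call without sh4 replicate 1 (0.95).

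BMPR1B (2.12 ± 0.32), INHBB (2.09 ± 0.59), TGFB2 (1.14 ± 0.30) and GDF3, at 0 with sh4, were also higher with sh1. TGFBR3 (-2.08 ± 0.21), LTBP2 (-1.42 ± 0.17) and BMP2 (-1.21 ± 0.32) were lower with sh1 than with sh4. Without sh1 replicate 3 the INHBB value was 1.10. The TGFB2 call was lost without sh1 replicate 2 (0.77) or without sh4 replicate 1, and the BMP2 call without sh4 replicate 1 (-0.80) or with scaling by total count alone. The 10 most abundant genes took 6.73 to 7.41% of counts with sh1 and 11.79 to 14.45% with sh4, against 5.38 to 5.81% with NC.

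In the NPCs the ligands INHBA, an activin subunit, and TGFB1 were higher with both hairpins. INHBA was at 24.5, 29, 24.5, 24.8 and 23.9 CPM with sh1 and 88.4, 88.4, 66.5, 86.5 and 95.3 CPM with sh4, against 9.39, 11.1, 8.52, 9.61 and 12.3 CPM with NC. TGFB1 was at 30, 20.9, 31.4, 28.5 and 28 CPM with sh1 and 64.6, 58.1, 48.1, 66.4 and 62.3 CPM with sh4, against 10.9, 11.2, 10.7, 10.9 and 8.77 CPM with NC. The 3 groups were separate for both genes, highest with sh4. Between sh1 and sh4 the log2 fold changes were -1.75 ± 0.09 and -1.11 ± 0.10 (adjusted p = 2.44e-11 and 4.51e-08, edgeR, n = 5 libraries per group).

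TGFB2 and TGFB3, which rose in the organoids, were lowest with sh1 in the NPCs. TGFB2 was at 35.2, 32.9, 38.1, 31.1 and 24.1 CPM with sh1 and 106, 71.5, 62.9, 84.9 and 76.5 CPM with sh4, against 79.5, 74, 74, 68.7 and 65.4 CPM with NC. TGFB3 was at 1.68, 1.87, 2.4, 2.36 and 1.9 CPM with sh1 and 7.47, 6.57, 5.33, 7.44 and 7.72 CPM with sh4, against 4.8, 4.02, 3.13, 3.98 and 3.76 CPM with NC. With sh1 all libraries were under NC for both genes, and with sh4 TGFB2 overlapped NC while TGFB3 lay above it. TGFB2 fell with sh1, at -1.17 ± 0.12 (adjusted p = 5.23e-08, edgeR) and TGFB3 was not called against NC (-0.95 ± 0.15 and 0.80 ± 0.13). Between sh1 and sh4 both were called, at -1.32 ± 0.12 and -1.75 ± 0.14 (adjusted p = 6.18e-08 and 1.01e-08, edgeR).

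TDGF1, LEFTY2 and GDF3 rose with both hairpins in the NPCs. TDGF1 was at 5.37, 7.46, 5.76, 7.32 and 7.6 CPM with sh1 and 8.3, 9, 9.88, 11.1 and 8.53 CPM with sh4, against 1.41, 1.03, 0.51, 1.16 and 1.15 CPM with NC. LEFTY2 was at 14.2, 11.6, 12.8, 11.6 and 11.5 CPM with sh1 and 126, 63.1, 37.9, 118 and 102 CPM with sh4, against 3.39, 4.43, 3.28, 4.64 and 4.02 CPM with NC. GDF3 had 9, 9, 9, 13 and 21 counts with sh1 and 15, 18, 17, 23 and 18 with sh4, against 6, 2, 2, 1 and 2 with NC. Every hairpin library was above every NC library for these 3 genes, and LEFTY2 varied widely among sh4 libraries. LEFTY2 rose by 1.63 ± 0.30 and 4.49 ± 0.27 and GDF3 by 2.17 ± 0.38 and 2.68 ± 0.35 in log2 units (adjusted p at most 4.87e-05, edgeR). LEFTY1 had 4, 6, 8, 12 and 6 counts with sh1 and 9, 8, 4, 21 and 21 with sh4, against 2, 0, 1, 2 and 0 with NC, and INHBB had 1 to 8 counts; neither was tested within the NPCs.

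Of 8 tested pluripotency markers in the NPCs 4 rose and 1, POU5F1, fell with both hairpins. The list summed to 875 to 984 CPM with sh1 and 1100 to 1220 CPM with sh4, against 759 to 838 CPM with NC. Neural progenitor markers rose for 4 of 7 tested and fell for 0 with both hairpins, while 1 fell with sh1 and 1 with sh4. Their sums were 1920 to 2180 CPM with sh1 and 2800 to 3310 CPM with sh4, against 2260 to 2460 CPM with NC. Mesenchyme markers rose for 2 of 9, with sums of 5560 to 6810 CPM with sh1 and 6670 to 7570 CPM with sh4, against 7160 to 7840 CPM with NC. With sh4 7 of the 9 mesenchyme markers rose, with a median log2 fold change of 1.26, whereas COL3A1, which made up most of the sum, averaged 4230 CPM with sh1 and 4510 CPM with sh4, against 6160 CPM with NC, and was not called. Of 6 roof plate and cortical hem markers 1 rose and 1 fell with both hairpins, and 4 fell with sh4, with sums of 342 to 419 CPM with sh1 and 103 to 131 CPM with sh4, against 264 to 316 CPM with NC. Neuron markers fell for 3 of 5 with sh1 and 0 with sh4, with sums of 2140 to 2440 CPM with sh1 and 2520 to 2650 CPM with sh4, against 2050 to 2630 CPM with NC. Choroid plexus sums were 119 to 124 CPM with sh1 and 103 to 123 CPM with sh4, against 157 to 166 CPM with NC, epithelium sums 289 to 331 CPM with sh1 and 272 to 331 CPM with sh4, against 252 to 276 CPM with NC, neural crest sums 261 to 328 CPM with sh1 and 254 to 332 CPM with sh4, against 244 to 272 CPM with NC, and mesoderm and endoderm sums 0.872 to 1.54 CPM with sh1 and 1.14 to 1.62 CPM with sh4, against 2.38 to 2.99 CPM with NC. These lists, with called higher and lower with both hairpins of those tested, had 1 and 0 of 8 (choroid plexus), 0 and 2 of 8 (epithelium), 0 of 2 (neural crest) and 0 and 1 of 2 (mesoderm and endoderm). Their part in the NPC values was not tested.

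Of the antagonists GREM1 and FST rose, and the ligand BMP6 fell, with both hairpins in the NPCs. GREM1 was at 101, 80.2, 105, 73.8 and 54.3 CPM with sh1 and 93.1, 76.7, 63.7, 79.5 and 74.3 CPM with sh4, against 18.2, 17.9, 18.2, 17.6 and 17.6 CPM with NC. FST was at 427, 419, 429, 371 and 353 CPM with sh1 and 451, 376, 324, 436 and 390 CPM with sh4, against 78, 104, 89.6, 104 and 173 CPM with NC. BMP6 was at 1.95, 1.48, 2.46, 2.15 and 1.59 CPM with sh1 and 2.69, 2.28, 2.9, 1.58 and 1.67 CPM with sh4, against 7.04, 5.3, 5.82, 6.02 and 6.16 CPM with NC. The hairpin libraries of these 3 genes did not overlap NC, and sh1 and sh4 overlapped each other. The 95% intervals of the log2 fold change of sh1 over sh4 were -0.17 to 0.37 for GREM1, -0.29 to 0.32 for FST and -0.60 to 0.18 for BMP6. CHRD fell with sh4 (-1.18 ± 0.15) and was not called with sh1 (-0.94 ± 0.15). NOG (-0.80 ± 0.18 and -0.85 ± 0.18), BAMBI (-0.39 ± 0.11 and -0.48 ± 0.11), BMP2 (-0.46 ± 0.09 and -0.84 ± 0.09) and BMP7 (0.56 ± 0.07 and 0.54 ± 0.07) were not called.

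None of the 6 receptors tested was called in the NPCs. They ranged from -0.82 (TGFBR2 with sh1) to 0.36 (BMPR1B with sh1). SMAD1, SMAD2, SMAD3 and SMAD4 were not called and ranged from 0.05 (SMAD4 with sh4) to 0.42 (SMAD2 with sh4). SMAD9, a SMAD of the BMP branch, was at 10.7, 11.9, 9.73, 9.47 and 10.3 CPM with sh1 and 5.55, 6.47, 7.71, 5.7 and 6.15 CPM with sh4, against 19.6, 19, 18.9, 17.4 and 17.7 CPM with NC. The 3 groups were separate, and it fell with sh4, at -1.55 ± 0.09, and stood at -0.83 ± 0.09 with sh1. TGFBR3 was at -0.23 ± 0.09 and -0.86 ± 0.09, and LTBP1 at 0.82 ± 0.05 and 0.91 ± 0.05.

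ID3, the only ID gene listed for the NPCs, was at 36.4, 27.1, 37.3, 29.9 and 24.3 CPM with sh1 and 8.35, 6.78, 6.62, 7.71 and 6.75 CPM with sh4, against 49.4, 41, 44.2, 37.9 and 28.9 CPM with NC. LTBP2 was at 17, 16.3, 16.5, 19.7 and 18.5 CPM with sh1 and 37.5, 39.4, 32.6, 37.4 and 39.5 CPM with sh4, against 13.4, 16.7, 12.5, 16.3 and 16.4 CPM with NC. The sh4 libraries stood apart from all others, low for ID3 and high for LTBP2, while sh1 overlapped NC. With sh4 ID3 fell, at -2.47 ± 0.14, and LTBP2 rose by 1.30 ± 0.09, and sh1 over sh4 was 2.10 ± 0.15 and -1.08 ± 0.09 (adjusted p = 9.01e-10 and 5.86e-09, edgeR). In all 7 members were called between the hairpins: ID3 higher with sh1, and INHBA, TGFB1, TGFB2, TGFB3, LTBP2 and LEFTY2 lower. That is 3.23% and 19.4% of the 31, beside 2.18% and 2.42% of all genes.

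**Figure D4:**
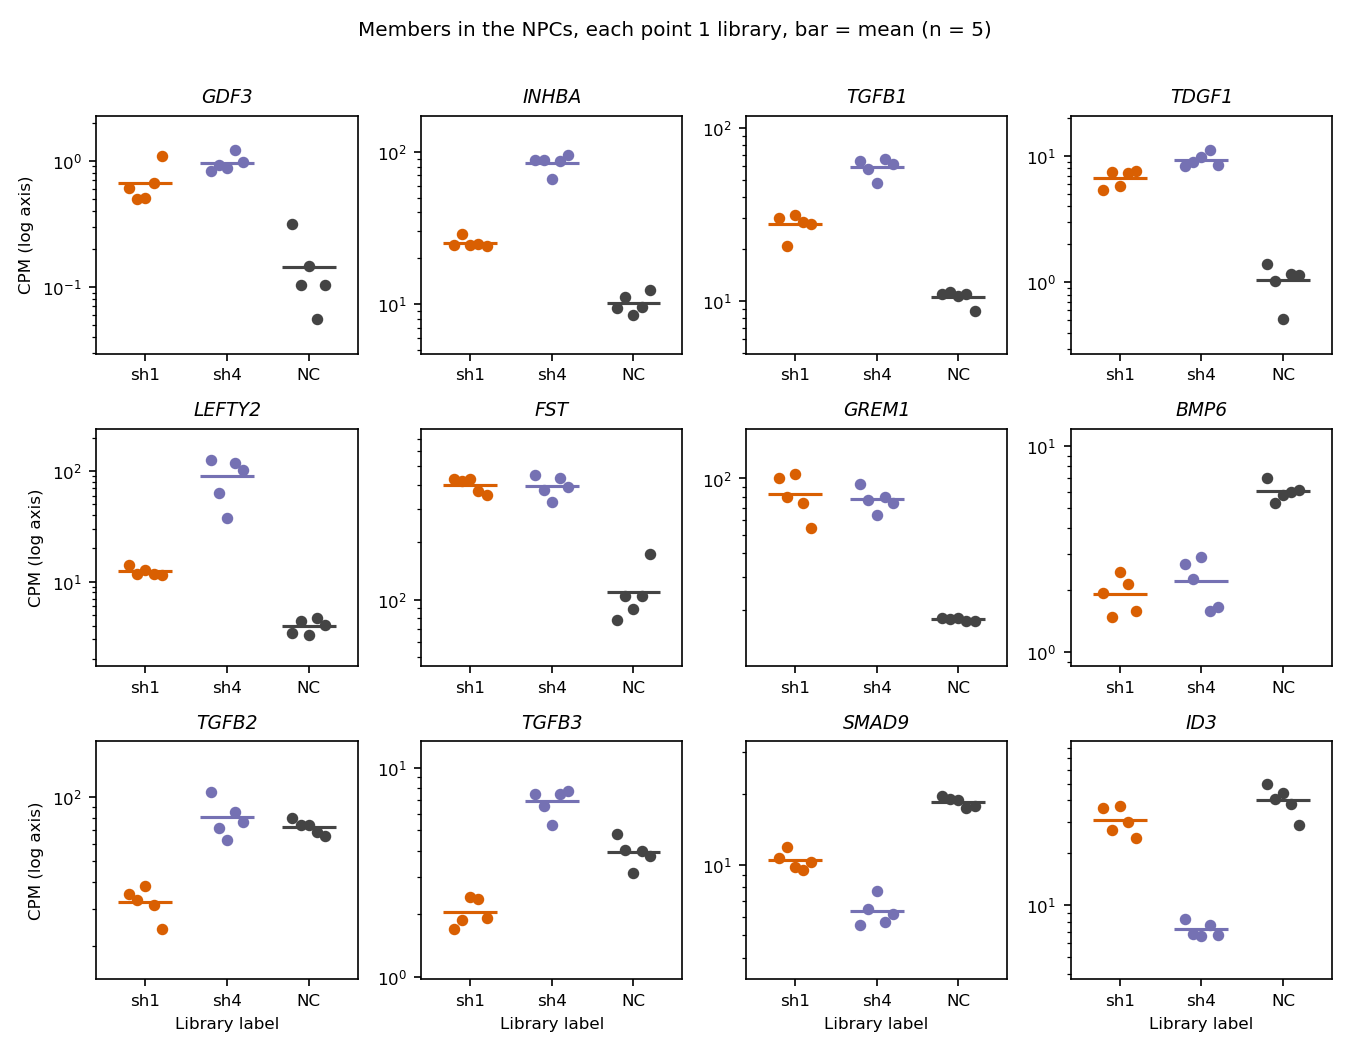
Level in CPM of listed genes (vertical, log axis) of members in each NPC library, by label (sh1, sh4, NC), with bars at the means of 5 libraries. INHBA, TGFB1, TDGF1 and LEFTY2 lie above NC with both hairpins and BMP6 under it, and ID3 is lowest with sh4.

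The mean effect of both hairpins over NC was compared between the systems, as NPCs minus organoids, in a joint fit. Of 33 members tested 10 were called higher in the NPCs and 8 lower (30.3% and 24.2%, beside 13.7% and 20.8% of all genes). All genes are here those listed for both systems, so these shares also depend on how the NPC genes were picked. TDGF1 differed by 8.34 ± 0.31 in log2 units (adjusted p = 5.12e-17, edgeR), with log2 fold changes of 2.64 and 3.11 in the NPCs and -5.93 and -4.98 in the organoids. GDF3 gave 9.25 ± 0.66, a fitted value and no bound, since the sh4 organoids were at 0. In the other direction TGFBR2 differed by -3.68 ± 0.19, with -0.82 and -0.53 in the NPCs and 3.17 and 2.87 in the organoids. TGFB3 differed by -3.46 ± 0.20 and TGFB2 by -2.50 ± 0.28 (adjusted p at most 1.36e-08 for these 3, edgeR).

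BMP5 had opposite directions, at 91.5, 101, 102, 88.6 and 73.1 CPM with sh1 and 88, 72.2, 73, 78.9 and 74.6 CPM with sh4, against 147, 145, 142, 146 and 146 CPM with NC in the NPCs. Its NPC values were -0.67 ± 0.07 and -0.91 ± 0.07, short of the fold minimum, and the difference was -2.09 ± 0.17. The effects on ID3 (-2.27 ± 0.20), TGFBR3 (-2.20 ± 0.18), BAMBI (-1.41 ± 0.13) and SMAD9 (-1.08 ± 0.19) were also lower in the NPCs. The effects on LEFTY1 (3.61 ± 1.01), LEFTY2 (3.16 with an SE of 0.82), BMPR1B (2.25 ± 0.23), INHBA (1.62 ± 0.30), TGFB1 (1.56 ± 0.15), ACVR2B (1.38 ± 0.07), GREM1 (1.26 ± 0.47) and FST (1.18 ± 0.24) were higher. The LEFTY1 value was 4.25 without organoid sh1 replicate 1 and 2.92 without organoid NC replicate 2. The GREM1 call was lost without organoid NC replicate 2 or 3 (0.59 without replicate 3), its value was 1.86 without organoid NC replicate 1, and the SMAD9 call was lost without organoid sh4 replicate 3 (-0.88). Each difference averages sh1 and sh4. For SMAD9 the organoids averaged 33.9 CPM with sh1 and 14.7 CPM with sh4, against 23.9 CPM with NC, so the average describes neither label. The same holds for TGFB3 in the NPCs, which averaged 2.04 CPM with sh1 and 6.91 CPM with sh4, against 3.94 CPM with NC. In the NPCs TGFB2 lay under NC with sh1 alone and overlapped it with sh4. Against NC, TGFBR3 was called in the organoids with sh4 alone, and ID3 with sh1 alone in the organoids and sh4 alone in the NPCs. BMP6 was lower with the hairpins in both systems, and its difference was not called (95% interval -0.14 to 1.49). The systems came from separate tables and KDM2A was not lower in the organoids, so this compares labelled groups.

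**Figure D5:**
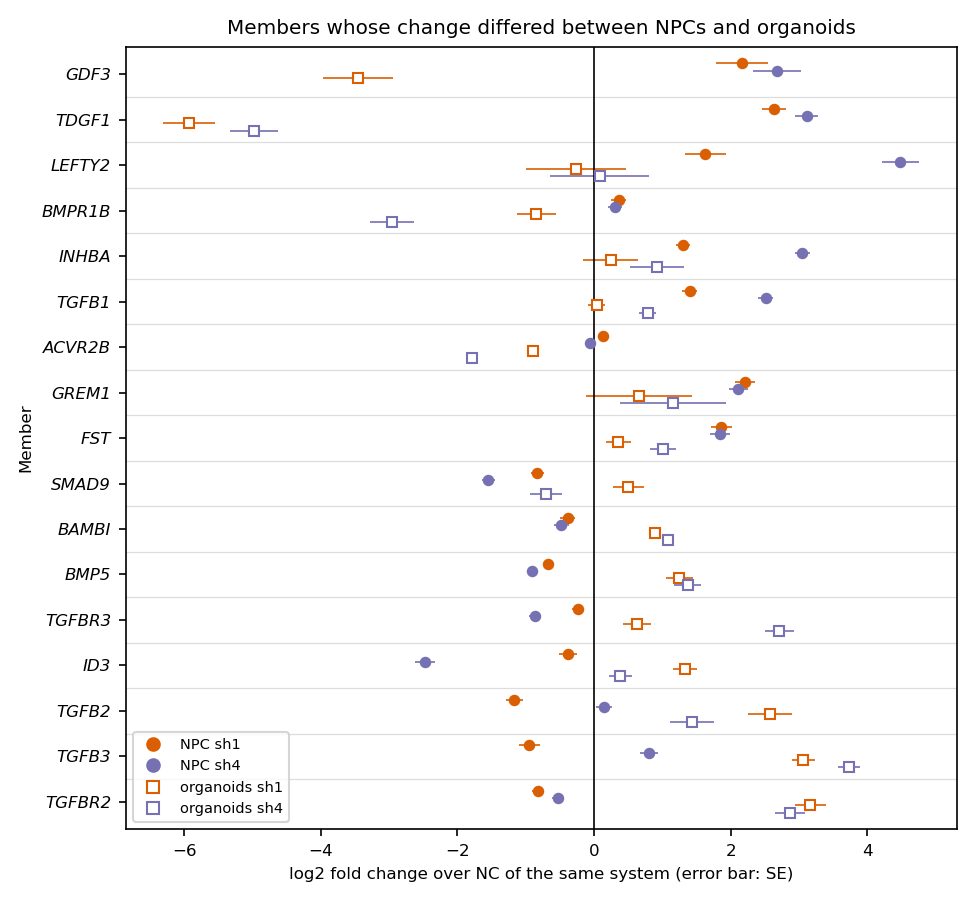
Log2 fold change over NC (with SE) of 17 members whose effect differed between systems, for sh1 and sh4 in the NPCs and in the organoids. LEFTY1, not tested within either system, and GDF3 with sh4 in the organoids, at 0 counts, are left out; TDGF1 lies at 2.64 and 3.11 in the NPCs and at -5.93 and -4.98 in the organoids.

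Levels per kilobase of exon allow genes to be compared roughly. The length used joins all annotated exons of a gene, so it can exceed that of the RNA and lower the value. ACVR2B, at 244 CPM in the organoids labelled NC, was at 15.5 CPM per kb over 15744 bases. ID1, at 124 CPM there, had 1233 bases. By this measure the 4 ID genes had the highest mean levels of all members in the organoids labelled NC. There ID1 was at 101 ± 5.85 and ID4 at 91.3 ± 7.83 CPM per kb (SD, n = 3), within about their spread of each other. ID3 followed at 49 ± 11.5 and ID2 at 35.5 ± 5.34. With sh1, ID1 at 130 ± 13.7 and ID3 at 123 ± 11.3 lay within their spread, above ID2 at 66.2 ± 5.15, and BAMBI at 37.8 ± 0.755 stood above ID4 at 30.4 ± 3.45. With sh4, ID2 at 68.2 ± 9.07 and ID3 at 63.9 ± 10.3 lay within their spread, then ID1 at 52.2 ± 4.34. BAMBI at 43.3 ± 3.79, TGFBR3 at 28.8 ± 5.13 and BMP4 at 27.5 ± 2.47 stood above ID4, at 15.6 ± 4.38, with sh4. In the NPCs FST was at 135 ± 11.9 CPM per kb with sh1 and 133 ± 17 with sh4, against 37 ± 12.5 with NC, and TGFBR1 at 57.5 ± 3.48 with sh1 and 54.9 ± 1.83 with sh4, against 53.5 ± 1.51 with NC (n = 5).

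A further 107 genes of the pathways, also chosen with earlier results of these data known, were followed by list. In the organoids 101 were tested, and 28 rose and 12 fell with both hairpins, beside 10.2% and 6.18% of all genes. Of 24 extracellular regulators 11 rose and 1 fell, with list medians of 0.81 with sh1 and 1.03 with sh4 beside all-gene medians of 0.02 and -0.01. Among them LTBP3, a latent TGF-beta carrier, rose by 2.02 ± 0.11 and 2.35 ± 0.11, FBN1, fibrillin, by 2.39 ± 0.17 and 2.31 ± 0.17, and SOSTDC1, a secreted BMP antagonist, by 3.81 ± 0.25 and 4.79 ± 0.25. DCN, decorin, which binds TGF-beta and is on the mesenchyme list too, rose by 3.11 ± 0.20 and 4.61 ± 0.22.

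Of 17 other ligands in the organoids 5 rose and 1 fell with both hairpins. BMP1, a procollagen proteinase, rose by 1.49 ± 0.13 and 1.80 ± 0.13, GDF5, a ligand of joint formation, by 3.01 ± 0.40 and 3.80 ± 0.40, and GDF10 by 2.43 ± 0.35 and 1.75 ± 0.35. GDF15, a stress-induced ligand, fell, at -2.17 ± 0.11 and -1.66 ± 0.11. Of 10 other receptors and co-receptors, ENG, endoglin, rose by 1.89 ± 0.21 and 2.54 ± 0.21 and AMHR2 by 2.40 ± 0.39 and 1.94 ± 0.39, while RGMA, a BMP co-receptor, fell, at -2.26 ± 0.21 and -3.37 ± 0.23. CFC1, a relative of CRIPTO with a near-identical copy and so of uncertain count, fell, at -1.85 ± 0.19 and -1.30 ± 0.18. Of 20 intracellular regulators 0 rose and 2 fell, FOXH1 and NEDD4L, a ubiquitin ligase that acts on SMAD proteins (-1.32 ± 0.13 and -1.38 ± 0.13).

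Of 14 NODAL and TGF-beta targets in the organoids 6 rose and 4 fell. TGFBI, a matrix protein induced by TGF-beta, rose by 3.61 ± 0.23 and 3.89 ± 0.23, and COL1A1, also a mesenchyme marker, by 2.44 ± 0.15 and 3.26 ± 0.16. NANOG, also a pluripotency marker, averaged 0.0183 CPM with sh1 and 0.0393 CPM with sh4, against 15.9 ± 5.88 CPM with NC. Of 16 BMP targets 4 rose and 2 fell. MSX2 rose by 1.23 ± 0.16 and 1.26 ± 0.16 and LMX1A, a roof plate factor, by 3.84 ± 0.46 and 3.15 ± 0.45, while the homeobox genes DLX5 (-5.11 ± 0.25 and -3.53 ± 0.23) and DLX6 fell.

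In the NPCs 61 of these genes were tested, and 10 rose and 7 fell with both hairpins, beside 4.62% and 8.48% of all genes. Of 8 NODAL and TGF-beta targets 4 rose and 0 fell, with TGFBI (2.12 ± 0.17 and 4.96 ± 0.15) and NANOG (2.88 ± 0.20 and 4.46 ± 0.18) among those that rose. Of 6 BMP targets 0 were called with both. Of 10 ligands 4 rose, among them AMH (1.70 ± 0.25 and 1.99 ± 0.24), INHBE (1.03 ± 0.16 and 1.62 ± 0.16) and GDF6 (1.16 ± 0.20 and 2.10 ± 0.19), and GDF9 fell (-1.16 ± 0.22 and -1.11 ± 0.22). Of 17 extracellular regulators 2 rose, among them TMEFF2 (1.82 ± 0.13 and 1.39 ± 0.13), and 4 fell, among them NRROS (-1.40 ± 0.14 and -2.40 ± 0.16), which anchors latent TGF-beta, and the GDF-binding WFIKKN2 (-2.89 ± 0.25 and -3.10 ± 0.25) and WFIKKN1 (-1.07 ± 0.14 and -1.31 ± 0.15). AMHR2 fell among 6 receptors (-1.98 ± 0.21 and -4.11 ± 0.28), and SKI, a corepressor of SMAD proteins, among 14 intracellular regulators (-1.53 ± 0.07 and -1.36 ± 0.07).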

How the data were processed

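The authors deposited 1 table of expected counts for each system, in which 82.4% (NPC) and 91% (organoid) of values were whole numbers; how reads were shared is not stated. STAR, featureCounts and GRCh38.p13 are named, per the submitters' processing notes; their versions and the strand setting are not given in the sources used here. Exons of 13 members overlap a gene on the opposite strand in GENCODE 29 (GRCh38), among them NODAL, TDGF1, TGFB1, TGFB3, LTBP2, GREM1 and SMAD1, and without strand such reads cannot be told apart. Exons of 6 members, TDGF1, TGFB2, LEFTY1, LEFTY2, SMAD4 and SMAD5, overlap a gene on the same strand. Strand would not tell those reads apart. Symbols were matched for 10120 and 61399 identifiers.

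The deposited expected counts were rounded, filtered with filterByExpr (minimum count 10), scaled by TMM and tested with edgeR 4.0.16 in R 4.3.3 over all genes, in 1 fit of 3 groups per system and 1 fit of 10028 shared genes for the difference. The thresholds are those of the series' design text, and the fit was tested on simulated data. Libraries were grouped by title. The labels do not say whether replicates were separate cultures, so p-values measure the spread between these libraries, which may be technical. The members and lists were chosen with earlier results of these data known. Library values are given for the 25 members with the smallest adjusted p among those called alike with both hairpins, between hairpins or between systems; from each other list, up to 4 genes called with both, some of which are not reported here. INHBB, LEFTY1 and KDM2A were added after their values were seen. Alternatives were DESeq2 1.42.0, library size alone, RLE, no filter, no fold minimum, 2-group fits, a replicate block and leaving out each library.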

Additional observations from a re-analysis of the deposited data

Results flagged for a closer look

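In 5 of 99 groups of 5 NPC libraries, 1 library stood far from the other 4, and chance gives about 1 in 20 such groups. They were the highest library of INHBA with sh1 (29 CPM), of TGFBR1 with sh1 (435 CPM) and of FST with NC (173 CPM), and the lowest of SMAD4 with sh1 (193 CPM) and of TGFB1 with NC (8.77 CPM).

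The mean change of the labelled sh1 and sh4 groups over NC differed between NPCs and organoids, by a test of the difference itself, for 18 of 33 members. Of the 33, 30.3% were called higher in the NPCs and 24.2% lower, beside 13.7% and 20.8% of all genes. On the log2 scale, as NPCs minus organoids, the difference was 9.25 for GDF3, 8.34 for TDGF1, 3.61 for LEFTY1, 3.16 for LEFTY2, 2.25 for BMPR1B, 1.62 for INHBA, 1.56 for TGFB1, 1.38 for ACVR2B, 1.26 for GREM1 and 1.18 for FST. It was -3.68 for TGFBR2, -3.46 for TGFB3, -2.50 for TGFB2, -2.27 for ID3, -2.20 for TGFBR3, -2.09 for BMP5, -1.41 for BAMBI and -1.08 for SMAD9. The GREM1 and SMAD9 calls were each lost under at least 1 alternative. KDM2A was not lower in the organoids.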

How the results depend on the processing

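Without the fold minimum, 30 members were called for NPC sh1 against NC, 25 for NPC sh4 against NC, 17 for NPC sh1 against sh4, 28 for organoid sh1 against NC, 36 for organoid sh4 against NC, 23 for organoid sh1 against sh4 and 28 for the difference between systems, against 9, 12, 7, 12, 18, 10 and 18 with it. Of all genes 99.3%, 88%, 27.6%, 46.7%, 67.9%, 49.9% and 78.6% had an adjusted p under 0.05 in these comparisons. Leaving out 1 library at a time gave 9 to 11, 12 to 12, 7 to 7, 12 to 13, 17 to 20, 7 to 12 and 17 to 19. Of 86 calls of single members 77 held under every other alternative that gave a value, 9 were lost under at least 1 and 0 changed direction; DESeq2 lost the GREM1 difference between systems. Scaling by library size alone shifted the all-gene median by -0.27 (organoid sh4 against NC), 0.23 (organoid sh1 against sh4), -0.14 (NPC sh1 against NC) and -0.14 (NPC sh4 against NC), and DESeq2 by -0.25 (NPC sh1 against NC). With library size alone the share of higher calls over all genes was 43.3% for organoid sh4 against NC, 57.3% for organoid sh1 against sh4 and 23.7% for NPC sh1 against NC, beside 56.4%, 41.2% and 34.3% with TMM. The cause was not tested. The 2-group fits left GDF3 untested for NPC sh1 against NC and organoid sh1 against sh4, with 8 and 9 members called there, and none was made for the difference between systems. Low counts limit NODAL, GDF3, CER1, INHBB, LEFTY1 and LEFTY2.

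A pairing of libraries by replicate number was not clear, and not every same-numbered pair passed 0.1. The median correlation of deviations of same-numbered libraries was 0.124 in the NPCs, beside -0.026 for libraries of other numbers. In the organoids these medians were -0.013 and 0.027. In the NPCs all pairs numbered 1 (0.181 to 0.327) and 5 (0.229 to 0.393) were positive, and the other pairs ranged from -0.1 to 0.215. With the replicate block the counts of members called were 9, 12, 7, 12, 18, 10 and 18.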
